A study of Mus musculus with 8 samples.

Results

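Replication-dependent histone genes are described here in macrophages grown from bone marrow of mice with and without Mkl1. Members were the genes whose symbol begins with Hist1h, Hist2h, Hist3h or Hist4h and that had at least 80 counts summed over the 8 libraries. This rule took 58 of 69 symbols of that form, among 53735 genes listed. Of the 58, 47 belong to the Hist1 cluster, 7 to Hist2, 3 to Hist3 and 1 to Hist4. By the histone type in their symbol, 5 are H1, 13 H2A, 16 H2B, 11 H3 and 13 H4. The 16 include Hist3h2bb-ps, a pseudogene with no annotated coding sequence. All 58 passed the filter on low counts used for the tests (14418 genes).

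WT mice were Mkl1+/+, Apoe-/- and KO mice Mkl1-/-, Apoe-/-, so every animal lacked Apoe and the Mkl1 deletion was global, on a C57BL/6J background. All were males of 6 months that had received angiotensin II (Ang II) at 1.44 mg/kg/day from an osmotic minipump for 7 days, and none of the libraries came from an animal without Ang II. Bone marrow cells were then differentiated for 7 days into bone marrow derived macrophages (BMDMs), and mRNA libraries were made with a stranded kit. There were 2 experiments, which the labels call batches. Experiment 1 held WT 1, WT 2, KO 5 and KO 6, and experiment 2 held WT 3, WT 4, KO 7 and KO 8. The question asked of each experiment was whether the genes differ between KO and WT BMDMs.

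Histones package DNA. H2A, H2B, H3 and H4 form the core of the nucleosome, and H1 binds the linker DNA between nucleosomes. The genes described here are transcribed mainly in S phase, when newly copied DNA must be packaged. Their mRNAs are unusual in that they end in a conserved stem-loop instead of a poly(A) tail. The stem-loop is bound by SLBP, and the 3′ end is cut by a complex that contains the U7 snRNA and CPSF subunits. Some of these genes also make polyadenylated transcripts that run past the stem-loop, and libraries prepared through poly(A) capture such transcripts in preference to the others.

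The stem-loop could be read from the mRNAs themselves. The histone stem-loop motif is 2 arms that pair around a short loop, with fixed bases in both. It was searched in the annotated transcripts (GENCODE M21, GRCm38) on the sense strand. It was found in 39 of the 58 members, against 136 of 21901 protein-coding genes (0.621%). In members it had to lie after the coding sequence of the longest transcript. For all genes it could lie anywhere in any protein-coding transcript, and the 136 include members. In members the motif began 24 to 57 bases after the last codon before the stop. The sequences below, 5′ to 3′, are those of members described in the results, one or more from each histone type, with 5 bases on either side and the stem-loop in capitals.
Hist1h1c: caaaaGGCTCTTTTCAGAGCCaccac
Hist1h1e: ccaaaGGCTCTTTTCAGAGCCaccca
Hist2h2ac: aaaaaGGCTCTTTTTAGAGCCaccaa
Hist1h2bb: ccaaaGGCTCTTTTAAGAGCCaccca
Hist3h2ba: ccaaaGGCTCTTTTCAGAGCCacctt
Hist1h3b: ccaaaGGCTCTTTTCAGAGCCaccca
Hist1h3f: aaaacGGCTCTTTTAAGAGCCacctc
Hist1h4d: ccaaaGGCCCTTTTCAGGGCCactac
Hist2h4: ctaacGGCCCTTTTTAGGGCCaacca
Hist1h4i: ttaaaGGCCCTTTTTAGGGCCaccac

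Members of H1, H2A, H2B and H3 shared the arms of the stem, while in H4 a different pair of bases in the arms was shared by 10 members and another by 2. The form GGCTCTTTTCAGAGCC was the most frequent, with 3 members of H1, 6 of H2A, 7 of H2B and 4 of H3. In 17 members the annotated transcript ended within 60 bases of the stem-loop, and in 22 it went on beyond that. In 15 the motif was not found and the annotation ended within 60 bases of the last codon before the stop. In 13 of these it ended within 5 bases, so that no 3′ end could be searched, and Hist1h1a and Hist2h3b had 51 and 40 bases there, the stop codon included. Hist1h2bc, Hist2h2be and Hist1h2bp had a longer 3′ end in which the motif was not found. Hist3h2bb-ps, a pseudogene, has no annotated coding sequence.

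In all, 33977799 to 41584540 counts per library were deposited, and levels below are CPM after TMM scaling, where CPM is the count of a gene per 1000000 counts of the library, unless another scale is named. Mkl1 had 25.6 and 27.1 CPM in WT 1 and WT 2, 26.8 and 29.5 CPM in WT 3 and WT 4, 19.5 and 20.9 CPM in KO 5 and KO 6, and 14.6 and 10.4 CPM in KO 7 and KO 8. Both KO libraries lay below both WT libraries in either experiment, and reads on Mkl1 were not absent from KO. The counts cover the whole gene, and the deleted part was not examined. Replicate libraries differed by more than counting noise (chi-square per gene 12.02 to 80.45). No source says which culture a library came from beyond its mouse genotype, so p-values measure the spread between these libraries. Near-identical copies are a limit on single genes. Of the 50-base windows of a member's transcripts, a median of 55% were found in no other gene, and 24 members had under 50%. Here and below, genes whose exons overlap the member were not counted as other genes, which bears on 18 members. How reads that match several genes were counted is not given in the sources used here.

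Summed over the members, the histone genes held very different shares of the libraries. Members took 0.0639% of all counts in WT 1 and 0.0715% in WT 2, and 0.164% in KO 5 and 0.207% in KO 6. In experiment 2 the order of the genotypes was the opposite, with 0.299% in WT 3 and 0.276% in WT 4 against 0.136% in KO 7 and 0.0984% in KO 8. The mean share in KO was 2.74-fold that of WT in experiment 1 and 0.407-fold that of WT in experiment 2. Replicates of one genotype and experiment differed by at most 1.38-fold, and the groups did not overlap in either experiment. The WT libraries of experiment 2 held 4.25-fold the share of the WT libraries of experiment 1, a larger ratio than that between the genotypes in either experiment. For the KO libraries the ratio was 0.632, experiment 2 over experiment 1. The labels do not say in what the experiments differed, so mice, cultures and sequencing cannot be told apart there. In bulk libraries, fewer cells that make histone mRNA and less histone mRNA per cell cannot be told apart either.

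**Figure D1:**
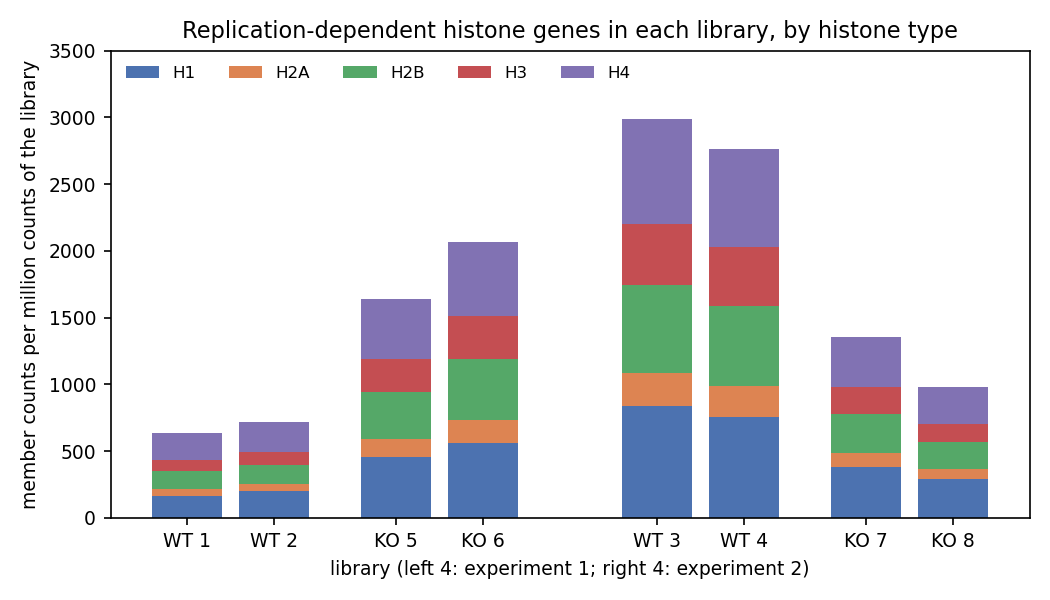
Counts on the 58 members per 1000000 counts of each library, stacked by histone type, with experiment 1 on the left and experiment 2 on the right (1 bar per library). WT 1 and WT 2 were lowest, at 639 and 715 per 1000000, and WT 3 and WT 4 highest, at 2992 and 2762 per 1000000.

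In every histone type and cluster the ratio of KO to WT was above 1 in experiment 1 and below 1 in experiment 2. In the 5 types, Hist1 and Hist2 the libraries of the 4 groups did not overlap, but in Hist3 and Hist4 they did. KO 6 was the highest library of Hist3, at 19.7 counts per 1000000 against 16.1 in WT 3, and KO 7 its lowest, at 6.68. In Hist4, KO 6 (17.3) was above WT 4 (14.9). Counts on H1 genes were 165 and 202 per 1000000 in WT 1 and WT 2, 459 and 561 in KO 5 and KO 6, 840 and 756 in WT 3 and WT 4, and 383 and 288 in KO 7 and KO 8. Counts on H4 genes were 207 and 224 per 1000000 in WT 1 and WT 2, 443 and 561 in KO 5 and KO 6, 792 and 733 in WT 3 and WT 4, and 373 and 280 in KO 7 and KO 8. The ratio of KO to WT in experiment 1 ran from 2.33 in H4 to 3.22 in H3, and in experiment 2 from 0.379 in H3 to 0.428 in H4. Among clusters the corresponding ratios were 2.7 and 0.408 for Hist1, 3.38 and 0.376 for Hist2, 2.21 and 0.470 for Hist3, and 2.43 and 0.578 for the Hist4 gene. The make-up by type moved little. H1 genes held 25.8% to 29.3% of the member counts in each library, H2A 7.00% to 8.47%, H2B 20.4% to 22.0%, H3 13.0% to 15.9% and H4 26.5% to 32.3%. H4 had its highest percentages in WT 1 and WT 2 (32.3% and 31.4%), the libraries with the lowest sums. These are descriptions of 2 libraries per group, and the differences in make-up were not tested.

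In experiment 1 most histone genes were higher in KO. Of the 58 members 51 rose and 1 fell, with a median log2 fold change of 1.57 (edgeR quasi-likelihood test, adjusted p under 0.05). Over all 14418 genes tested, 27.0% rose and 28.1% fell (55.1% in all), and the median log2 fold change was 0.01. Levels did not overlap, with both KO libraries above both WT libraries, in 53 members, against 41.2% of all genes. In experiment 2 most were lower in KO: 48 members fell and none rose, with a median log2 fold change of -1.43. Over all genes 8.29% fell and 7.52% rose, with a median of 0.01. Both KO libraries were below both WT libraries in 54 members, against 32.5% of all genes, and above them in none, against 32.9%. The count of experiment 2 rested on single libraries, and was 6 without KO 8 and 13 without WT 3. That of experiment 1 stayed between 48 and 51 in the fits that left out a library.

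The difference between the experiments was itself tested by the interaction of genotype and experiment, coded as log2 KO over WT in experiment 2 minus that in experiment 1. It was negative and past the threshold in 53 of the 58 members and positive in 1, with a median of -3.04. Over all genes 20.6% were called negative and 21.0% positive (41.6% in all). Of the members, 47 rose in experiment 1 and fell in experiment 2, which 466 of all genes (3.23%) did, and no member was called in the same direction in both. The 47 need the call of experiment 2, so there can be at most 6 without KO 8 and 13 without WT 3. Leaving out 1 library in turn, 51 to 53 members were called with a negative interaction. With all 8 libraries in 1 fit and the experiment as an additive term, no member was called by edgeR (1 at an unadjusted p under 0.05), while 3.72% of all genes rose and 3.41% fell. The median log2 fold change over both experiments was 0.06. Leaving out 1 library in turn, this median ran from -0.44 (without WT 1) to 0.616 (without KO 8), so its sign rested on single libraries. DESeq2 and the mean effect of a fit with 4 groups each called 1 member higher, Hist2h2be in both cases. These 4 comparisons share their libraries and are not independent of each other.

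**Figure D2:**
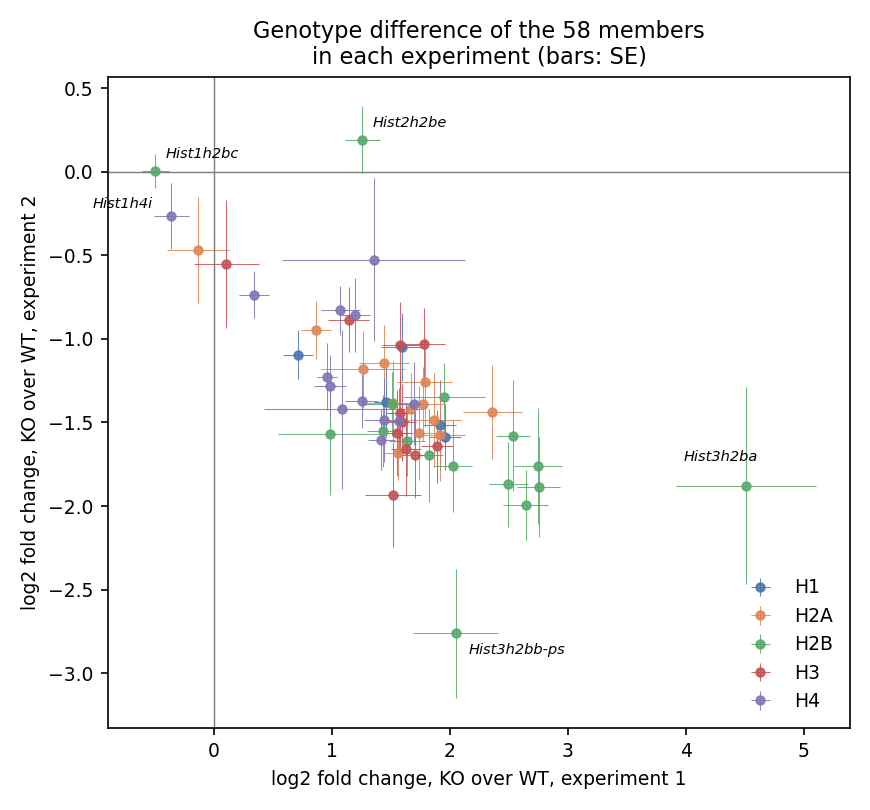
Log2 fold change of KO over WT for each of the 58 members, experiment 1 on the horizontal and experiment 2 on the vertical axis, with standard errors as bars and colour by histone type. Most members lie at lower right, higher in KO in experiment 1 and lower in KO in experiment 2, while Hist1h2bc, Hist1h4i, Hist1h2ad, Hist2h3c2 and Hist2h2be are among those that lie apart.

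The order of the libraries was nearly the same from gene to gene. In 44 members both WT libraries of experiment 2 were the highest and both WT libraries of experiment 1 the lowest of the 8, which held for 2.15% of all genes. In 40 of them the KO libraries of experiment 1 came next and those of experiment 2 after them, against 1.53% of all genes. Levels of a member in WT of experiment 2 were between 0.995-fold and 30.0-fold those in WT of experiment 1, with a median of 5.12-fold. The 30.0-fold was that of Hist3h2ba, with 1 count each in WT 1 and WT 2, and the next highest was Hist1h2bb at 12.8-fold. The members are neighbours in a few genomic clusters and many share sequence, so they are not independent replicates of a condition.

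**Figure D3:**
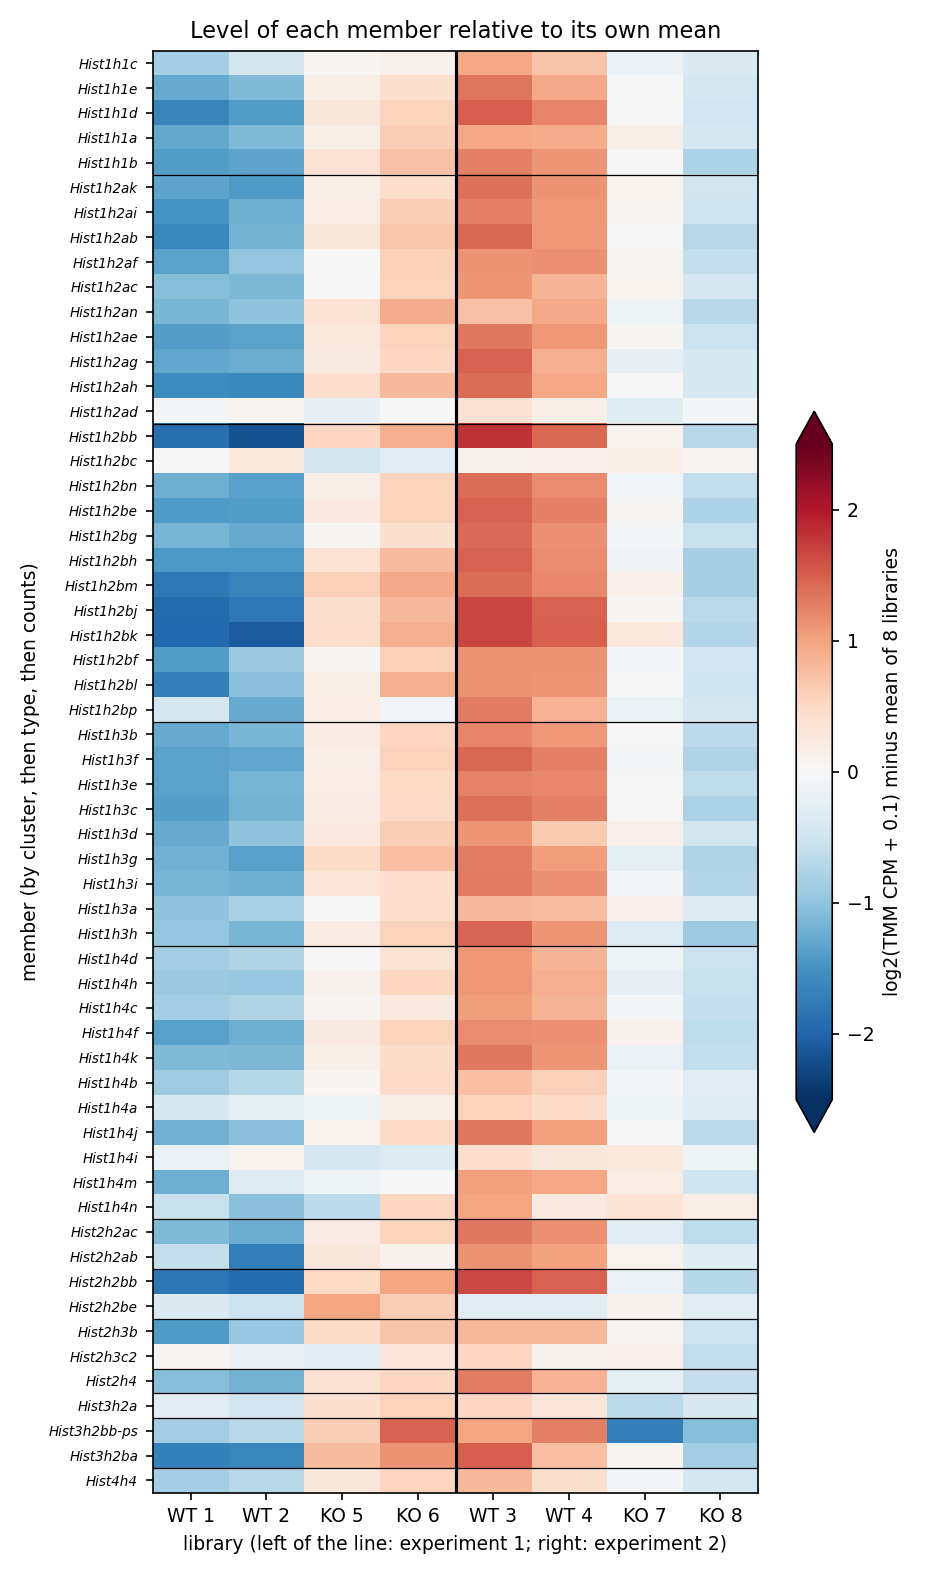
Level of each member in each library, as log2(CPM + 0.1) minus the mean of the member over the 8 libraries, with members ordered by cluster, histone type and counts. Nearly all rows are blue in WT 1 and WT 2 and red in WT 3 and WT 4, and the pale rows are Hist1h2bc, Hist1h2ad, Hist1h4i and Hist2h3c2.

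Linker histone genes were among the members with the most counts, and all 5 rose in experiment 1 and fell in experiment 2. Hist1h1c (chr13:23738808-23740367) had 62.1 and 81.0 CPM in WT 1 and WT 2, 116 and 120 CPM in KO 5 and KO 6, 217 and 183 CPM in WT 3 and WT 4, and 101 and 86.8 CPM in KO 7 and KO 8. Its log2 fold change was 0.71 (SE 0.13, adjusted p = 0.00634) in experiment 1 and -1.10 (SE 0.15, adjusted p = 0.0150) in experiment 2, the smallest interaction of the H1 genes at -1.82. The call of Hist1h1c in experiment 1 was lost without KO 5 and without KO 6. Hist1h1e had 39.2 and 43.6 CPM in WT 1 and WT 2, 105 and 124 CPM in KO 5 and KO 6, 239 and 183 CPM in WT 3 and WT 4, and 93.1 and 69.2 CPM in KO 7 and KO 8. Hist1h1d had 21.5 and 26.0 CPM in WT 1 and WT 2, 83.6 and 102 CPM in KO 5 and KO 6, 194 and 161 CPM in WT 3 and WT 4, and 68.4 and 49.7 CPM in KO 7 and KO 8. In neither did the genotypes overlap within an experiment. The log2 fold changes of Hist1h1e were 1.45 (SE 0.10) and -1.38 (SE 0.21), and those of Hist1h1d 1.96 (SE 0.14) and -1.59 (SE 0.20), in experiments 1 and 2. Hist1h1e shares exon sequence with Hist1h2be in the annotation, so reads there cannot be assigned to either with certainty.

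Of the 13 genes for H2A, which pairs with H2B in the nucleosome, 12 rose in experiment 1 and 12 fell in experiment 2. Hist2h2ac, of the Hist2 cluster on chromosome 3, had the most counts. It had 14.5 and 13.2 CPM in WT 1 and WT 2, 36.3 and 46.1 CPM in KO 5 and KO 6, 78.4 and 69.3 CPM in WT 3 and WT 4, and 25.9 and 20.1 CPM in KO 7 and KO 8. Its log2 fold change was 1.56 (SE 0.13) in experiment 1 and -1.68 (SE 0.16, adjusted p = 0.00779) in experiment 2, where Hist2h2ac and Hist2h2bb were the 2 members with an adjusted p under 0.01. Hist1h2ak had 9.88 and 9.26 CPM in WT 1 and WT 2, 27.6 and 33.7 CPM in KO 5 and KO 6, 65.1 and 54.7 CPM in WT 3 and WT 4, and 26.6 and 18.2 CPM in KO 7 and KO 8. Hist1h2ai had 3.34 and 4.05 CPM in WT 1 and WT 2, 10.8 and 14.6 CPM in KO 5 and KO 6, 23.0 and 20.3 CPM in WT 3 and WT 4, and 9.87 and 6.64 CPM in KO 7 and KO 8. In both the 4 groups had the same order as in Hist2h2ac, at lower levels, and the genotypes did not overlap within an experiment. Only 9.88% of the 50-base windows of Hist1h2ai were found in no other gene, overlapping genes left aside, so its level is uncertain. The exception among H2A genes was Hist1h2ad, singled out after its values were seen. It had 0.958 and 1.03 CPM in WT 1 and WT 2, 0.838 and 0.974 CPM in KO 5 and KO 6, 1.32 and 1.09 CPM in WT 3 and WT 4, and 0.780 and 0.959 CPM in KO 7 and KO 8. It passed no test (interaction -0.34, adjusted p = 0.478, edgeR).

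Members of the H2B type had the largest median interaction of the 5 types (-3.67, not tested between types), and 1 of them went the other way. Of the 16, which include the pseudogene Hist3h2bb-ps, 14 rose and 1 fell in experiment 1, and 13 fell in experiment 2. Hist1h2bb (chr13:23746734-23747241) had 10.7 and 8.74 CPM in WT 1 and WT 2, 57.3 and 75.5 CPM in KO 5 and KO 6, 140 and 109 CPM in WT 3 and WT 4, and 42.6 and 24.7 CPM in KO 7 and KO 8. That was a log2 fold change of 2.75 (SE 0.18, adjusted p = 0.000215) in experiment 1 and -1.89 (SE 0.30, adjusted p = 0.0224) in experiment 2, and the second call was lost without WT 3 and without KO 8. Hist1h2bn had 16.9 and 15.4 CPM in WT 1 and WT 2, 43.6 and 57.9 CPM in KO 5 and KO 6, 103 and 89.1 CPM in WT 3 and WT 4, and 37.5 and 25.6 CPM in KO 7 and KO 8. Of its 50-base windows 13.6% were found in no other gene.

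Hist1h2bc, the H2B gene with the second most counts, did not follow. It had 53.4 and 64.5 CPM in WT 1 and WT 2, 39.1 and 45.1 CPM in KO 5 and KO 6, 58.1 and 59.3 CPM in WT 3 and WT 4, and 60.9 and 57.0 CPM in KO 7 and KO 8. In experiment 1 it was lower in KO with a log2 fold change of -0.50 (SE 0.11, adjusted p = 0.0104), the only member called lower there. In experiment 2 the value was 0.01 (SE 0.10, adjusted p = 0.978), and the genotypes overlapped. The interaction of Hist1h2bc was 0.49 with an adjusted p of 0.0413 (edgeR), and fell short of the threshold in 6 of the 8 fits that left out a library.

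The 5 members with the largest interaction past the threshold were all H2B by symbol, the pseudogene Hist3h2bb-ps among them. They were selected on the interaction itself. Besides Hist1h2bb (-4.66) they were Hist3h2ba (-6.40), Hist3h2bb-ps (-4.82), Hist2h2bb (-4.65) and Hist1h2bk (-4.52). Hist2h2bb had 4.72 and 4.31 CPM in WT 1 and WT 2, 23.6 and 33.3 CPM in KO 5 and KO 6, 52.9 and 46.7 CPM in WT 3 and WT 4, and 14.9 and 10.2 CPM in KO 7 and KO 8. Hist1h2bk had 1.79 and 1.61 CPM in WT 1 and WT 2, 9.68 and 13.4 CPM in KO 5 and KO 6, 23.0 and 20.3 CPM in WT 3 and WT 4, and 8.58 and 4.24 CPM in KO 7 and KO 8. Hist2h2bb lies within annotated exons of other genes on both strands, and 25.8% of the windows of Hist1h2bk were found in no other gene. Hist3h2ba was barely counted: 1 count each in WT 1 and WT 2, 22 and 31 in KO 5 and KO 6, 38 and 20 in WT 3 and WT 4, and 13 and 5 in KO 7 and KO 8. Its ratio of KO to WT in experiment 1 was 27.2, with an exact 95% interval of 7.17 to 231 that covers counting error only, and its fitted values depend on the prior count. Hist3h2bb-ps had 0.565 and 0.645 CPM in WT 1 and WT 2, 1.76 and 3.27 CPM in KO 5 and KO 6, 2.30 and 2.82 CPM in WT 3 and WT 4, and 0.268 and 0.479 CPM in KO 7 and KO 8.

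Of the 11 genes for H3, whose tail carries many of the known histone marks, 10 rose in experiment 1 and 9 fell in experiment 2. Hist1h3b had 20.3 and 22.1 CPM in WT 1 and WT 2, 56.4 and 70.7 CPM in KO 5 and KO 6, 114 and 103 CPM in WT 3 and WT 4, and 49.4 and 30.8 CPM in KO 7 and KO 8. The log2 fold changes were 1.58 (SE 0.12) and -1.44 (SE 0.24). Hist1h3f and Hist1h3e carry the same stem-loop and the same 5 bases on either side of it, and they had nearly the same levels. Windows found in no other gene made up 39.6% in Hist1h3b, 50.7% in Hist1h3f and 26.6% in Hist1h3e, so the levels of these genes are uncertain. Hist1h3f had 14.1 and 14.4 CPM in WT 1 and WT 2, 40.4 and 53.2 CPM in KO 5 and KO 6, 96.6 and 85.8 CPM in WT 3 and WT 4, and 35.3 and 21.2 CPM in KO 7 and KO 8. Hist1h3e had 14.6 and 16.4 CPM in WT 1 and WT 2, 41.9 and 52.0 CPM in KO 5 and KO 6, 86.7 and 85.4 CPM in WT 3 and WT 4, and 37.4 and 23.6 CPM in KO 7 and KO 8. All 3 genes kept the genotypes apart in both experiments. Hist2h3c2, also singled out after its values were seen, was called in no test (interaction -0.67, adjusted p = 0.313, edgeR), at 0.911 to 2.11 CPM over the 8 libraries.

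Among the 5 histone types, genes for H4 had the smallest median interaction, a difference that was not tested. Of 13, 10 rose in experiment 1 and 9 fell in experiment 2, and the median interaction was -2.28. Hist1h4d (chr13:23581598-23582735), the member with the most counts (46499), had 75.9 and 81.7 CPM in WT 1 and WT 2, 137 and 177 CPM in KO 5 and KO 6, 291 and 249 CPM in WT 3 and WT 4, and 127 and 94.8 CPM in KO 7 and KO 8. The log2 fold changes were 0.98 (SE 0.13, adjusted p = 0.00227) and -1.28 (SE 0.19, adjusted p = 0.0173). Hist1h4h had 30.0 and 29.4 CPM in WT 1 and WT 2, 61.5 and 81.3 CPM in KO 5 and KO 6, 121 and 106 CPM in WT 3 and WT 4, and 49.3 and 38.5 CPM in KO 7 and KO 8. Hist1h4c had 26.6 and 28.8 CPM in WT 1 and WT 2, 50.9 and 57.4 CPM in KO 5 and KO 6, 99.3 and 87.1 CPM in WT 3 and WT 4, and 47.1 and 32.6 CPM in KO 7 and KO 8. Per kilobase of exon, Hist1h4h and Hist1h4d had the highest mean levels of all members, at 138 and 136 CPM per kb, against a median of 22.7. Hist1h4i and Hist1h4n passed no test. Hist1h4i had 5.97 and 7.12 CPM in WT 1 and WT 2, 5.00 and 5.25 CPM in KO 5 and KO 6, 8.98 and 8.16 CPM in WT 3 and WT 4, and 8.09 and 6.18 CPM in KO 7 and KO 8. Its KO libraries lay below its WT libraries in both experiments, and its interaction was 0.09 (adjusted p = 0.799, edgeR). It was singled out after its values were seen. Hist1h4i and Hist2h4 carry the same stem-loop, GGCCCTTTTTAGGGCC.

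Outside the Hist1 cluster, 10 of 11 members had a negative interaction past the threshold. Hist2h4 had 14.5 and 13.4 CPM in WT 1 and WT 2, 39.6 and 43.8 CPM in KO 5 and KO 6, 73.6 and 55.8 CPM in WT 3 and WT 4, and 26.0 and 20.1 CPM in KO 7 and KO 8. Hist3h2a, on chromosome 11, had 8.01 and 6.95 CPM in WT 1 and WT 2, 12.8 and 14.6 CPM in KO 5 and KO 6, 13.97 and 12.04 CPM in WT 3 and WT 4, and 6.14 and 7.36 CPM in KO 7 and KO 8. Hist4h4, alone on chromosome 6, had 6.22 and 6.95 CPM in WT 1 and WT 2, 13.9 and 16.4 CPM in KO 5 and KO 6, 20.05 and 15 CPM in WT 3 and WT 4, and 11.1 and 8.29 CPM in KO 7 and KO 8. All 3 rose in experiment 1, and their interactions were -3.07, -1.82 and -2.06. In Hist3h2a the KO libraries of experiment 2 were at the level of the WT libraries of experiment 1. Hist4h4 did not pass in experiment 2 (log2 fold change -0.86, adjusted p = 0.0572, edgeR), although its KO libraries lay below its WT libraries. In its exons Hist3h2a overlaps Trim17, on the same strand.

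Grouped by their annotated 3′ end, members with a stem-loop and those with a short annotated end had close medians, and the 3 members with a longer 3′ end and no stem-loop spread widely. The median interaction was -3.09 in the 17 members whose transcript ended soon after the stem-loop, -2.89 in the 22 whose transcript went on, and -3.12 in the 15 with a short annotated end and no stem-loop. Of those 15, all rose in experiment 1 and all fell in experiment 2. The 3 members with a longer 3′ end and no stem-loop had interactions of 0.49 (Hist1h2bc), -1.08 (Hist2h2be) and -2.57 (Hist1h2bp). Hist2h2be had 6.98 and 6.10 CPM in WT 1 and WT 2, 17.8 and 13.8 CPM in KO 5 and KO 6, 7.37 and 7.47 CPM in WT 3 and WT 4, and 9.68 and 7.29 CPM in KO 7 and KO 8. It rose in experiment 1 by 1.26 on the log2 scale (SE 0.15), but its genotypes overlapped in experiment 2 (0.19, SE 0.20). Hist1h2bp, with 196 counts in all, was called in experiment 2 alone. The grouping was made with the values known and is a description of 3 genes. The 4 members that passed no interaction test, Hist1h2ad, Hist2h3c2, Hist1h4i and Hist1h4n, all have a stem-loop.

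**Figure D4:**
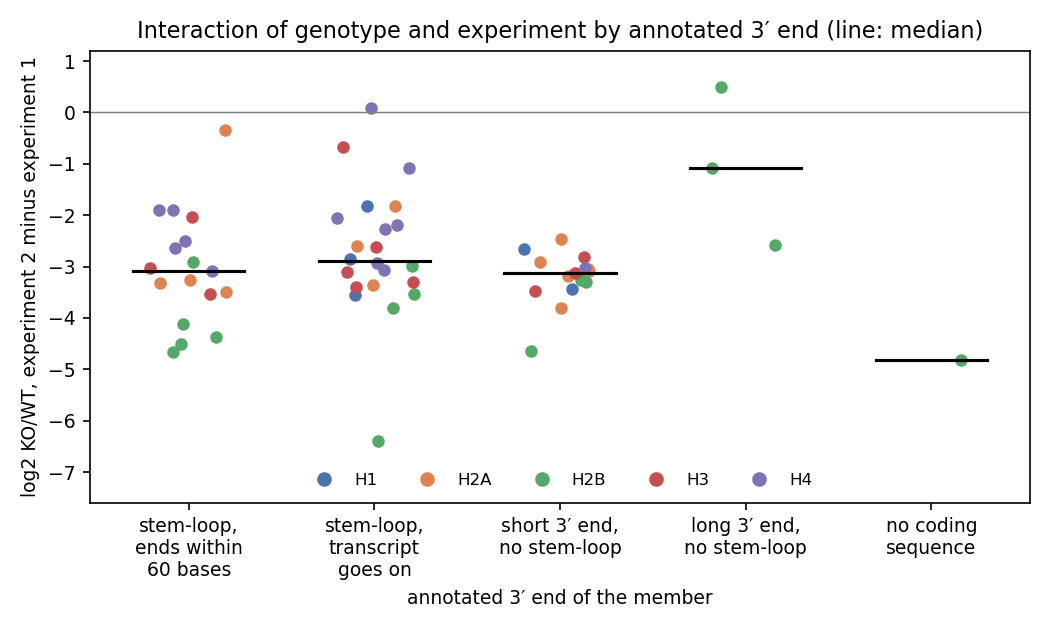
Interaction of genotype and experiment on the log2 scale for each member, by its annotated 3′ end, with a line at the median and colour by histone type. Members with a stem-loop and members with a short annotated end have medians between -3.12 and -2.89, while Hist1h2bc and Hist2h2be, with a longer 3′ end and no stem-loop, lie at 0.49 and -1.08.

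Several of the exceptions stand head to head with a member that moved. Counting members on opposite strands whose starts were less than 1000 bases apart gave 11 such pairs, at 172 to 659 bases. The interactions within a pair differed by under 1 on the log2 scale in 6 pairs and by 1 or more in 5, with a median difference of 0.71. Hist1h2ac and Hist1h2bc start 250 bases apart, with interactions of -2.60 and 0.49. Hist2h2ac and Hist2h2be start 238 bases apart, with -3.25 and -1.08, and Hist1h2bf and Hist1h2ad 184 bases apart, with -2.91 and -0.34. In contrast, Hist1h2bl and Hist1h2ai, 278 bases apart, had -3.30 and -3.18. Differences within a pair were not tested, since these genes were compared after their values were seen.

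Promoters of 52 members, from 250 bases before to 50 after the start, were matched in RefSeq (GRCm38.p6). They were searched on both strands for 4 motifs. The first was the CCAAT box, which NF-Y binds. The second was the TATA box, taken as TATAAA. The third was the octamer, which OCT1 binds, taken as ATTTGCAT. The last was the CArG box, which is the site of SRF, the partner of MKL1. A CCAAT box was present in 43 (82.7%) against 37.4% of all 32851 promoters. A TATA box was present in 61.5% against 13.6%. The octamer was in 11 members, 6 for H2A and 5 for H2B, or 21.2% against 1.74%. Hist1h2be has 2 RefSeq starts, of which 1 was counted here, and the window of the other holds an octamer. The CCAAT box was in every promoter matched for H1, H2A, H2B and H3, and in 3 of 12 for H4. A CArG box was in 4 (Hist1h2bb, Hist2h2ac, Hist1h2an and Hist1h2bp, the last 2 a head-to-head pair with overlapping windows), or 7.69% against 1.63%. In the last 3 of these the match is the TATA box with its flanking bases, so that 1 member, Hist1h2bb, or 1.92%, had a CArG box that holds no TATA box, against 1.57% of all promoters. A match is a description of letters in a window and not of a bound site. The promoters shown are those of Hist1h2bb, with the largest change of the abundant members, and of Hist2h2ac and Hist1h2ac, which reach over the gap to Hist2h2be and Hist1h2bc. The first 3 motifs are in capitals on whichever strand they lie.
Hist1h2bb, chr13:23746484-23746783, plus strand: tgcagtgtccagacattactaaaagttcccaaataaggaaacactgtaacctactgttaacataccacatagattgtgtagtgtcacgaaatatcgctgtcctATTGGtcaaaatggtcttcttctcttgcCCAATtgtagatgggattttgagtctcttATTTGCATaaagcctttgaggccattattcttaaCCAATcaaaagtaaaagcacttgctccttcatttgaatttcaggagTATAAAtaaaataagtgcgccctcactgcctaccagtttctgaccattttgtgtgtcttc
Hist2h2ac, chr3:96220831-96221130, minus strand: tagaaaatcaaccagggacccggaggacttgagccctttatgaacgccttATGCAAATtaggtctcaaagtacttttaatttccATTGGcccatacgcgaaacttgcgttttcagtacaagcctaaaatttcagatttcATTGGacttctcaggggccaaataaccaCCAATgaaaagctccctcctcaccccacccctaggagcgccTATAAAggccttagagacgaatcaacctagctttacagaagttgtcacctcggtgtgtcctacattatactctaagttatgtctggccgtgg
Hist1h2ac, chr13:23683910-23684209, minus strand: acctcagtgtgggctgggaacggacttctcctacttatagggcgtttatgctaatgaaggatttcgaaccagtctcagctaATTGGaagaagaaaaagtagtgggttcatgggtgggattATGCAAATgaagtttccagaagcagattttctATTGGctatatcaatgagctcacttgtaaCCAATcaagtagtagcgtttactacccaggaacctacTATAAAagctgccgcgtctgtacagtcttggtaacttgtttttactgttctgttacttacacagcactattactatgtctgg

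Genes that process or degrade histone mRNA, or carry histones, were measured beside the members. The counts of these and the following lists stand against 55.1% of all genes that passed in experiment 1 and 15.8% in experiment 2. In the interaction test 21.0% of all genes were called positive and 20.6% negative. Of 13 genes tested for histone mRNA transcription and 3′ processing, 8 fell and 1 rose in experiment 1, and none passed in experiment 2 (edgeR). Slbp, the stem-loop binding protein, had 70 and 71.01 CPM in WT 1 and WT 2, 49.5 and 56.5 CPM in KO 5 and KO 6, 47.7 and 50.2 CPM in WT 3 and WT 4, and 56.6 and 61.3 CPM in KO 7 and KO 8. Its interaction was 0.68 (adjusted p = 0.00516, edgeR), opposite in sign to that of most members. Npat, the coactivator of histone genes, and Sympk, a scaffold of the cleavage complex, also had positive interactions (0.54 and 0.78). Rnu7, the U7 snRNA, was listed at 0 in all 8 libraries. Of 7 genes of histone mRNA decay, 3 rose and 2 fell in experiment 1 and 1 fell in experiment 2. Among them were the exonuclease Eri1 (interaction 0.54), the exosome subunit Dis3 (0.45) and the exonuclease Xrn1 (-1.38). Of 9 histone chaperones, 6 fell and 1 rose in experiment 1, and 2 fell in experiment 2. Interactions were 0.70 for Nasp, which holds H3 and H4, 0.92 for Chaf1b, a subunit of CAF-1, and -2.52 for Daxx, which deposits H3.3.

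Histone variants that can be made outside S phase are encoded elsewhere, by genes with polyadenylated mRNAs, although H2afx also makes a stem-loop mRNA. Of 10 tested, 6 rose and 1 fell in experiment 1, and 4 fell in experiment 2. Cenpa, the centromeric H3, went as the members did, with 16.6 and 17.2 CPM in WT 1 and WT 2, 52.12 and 57.98 CPM in KO 5 and KO 6, 63.7 and 52.2 CPM in WT 3 and WT 4, and 24.1 and 14.8 CPM in KO 7 and KO 8 (interaction -3.28, adjusted p = 0.000412, edgeR). H2afx, which is phosphorylated at DNA breaks, and H2afv had interactions of -1.72 and -1.26.

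The cell cycle lists parted from each other. Of 26 DNA replication genes 24 fell in experiment 1 (median log2 fold change -0.71; 14 without WT 2), where the members rose, and in experiment 2 2 fell and 1 rose (median -0.03). The interaction was positive and past the threshold in 13 and negative in none, among them the replication factors Cdt1 (1.77), Cdc45 (1.32) and Cdc6 (1.91). Of 14 mitosis genes 5 rose and 1 fell in experiment 1 (median 0.08), and all 14 fell in experiment 2 (median -1.13). Without WT 3, WT 4 or KO 8 the latter count was 2, 7 and 1. The interaction was negative and past the threshold in 13 of the 14, the sign of most members (median -1.30), and was -2.46 for Plk1, a mitotic kinase, and -2.48 and -1.41 for the cyclins Ccnb2 and Ccnb1. The summed level of the mitosis genes was 1901 to 1944 CPM in WT 1 and WT 2, 1888 to 2208 CPM in KO 5 and KO 6, 3657 to 3910 CPM in WT 3 and WT 4, and 1324 to 1952 CPM in KO 7 and KO 8. For DNA replication the sums were 2249 to 2342, 1240 to 1598, 1806 to 2271 and 1706 to 1997 CPM in the same order. In experiment 1 5 of 7 CDK inhibitor genes rose and 2 fell, and 1 fell in experiment 2, with interactions of -1.58 for Cdkn2c, -3.27 for Cdkn2a and -1.35 for Cdkn2d. Whether the share of cells in S phase differed was not measured.

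**Figure D5:**
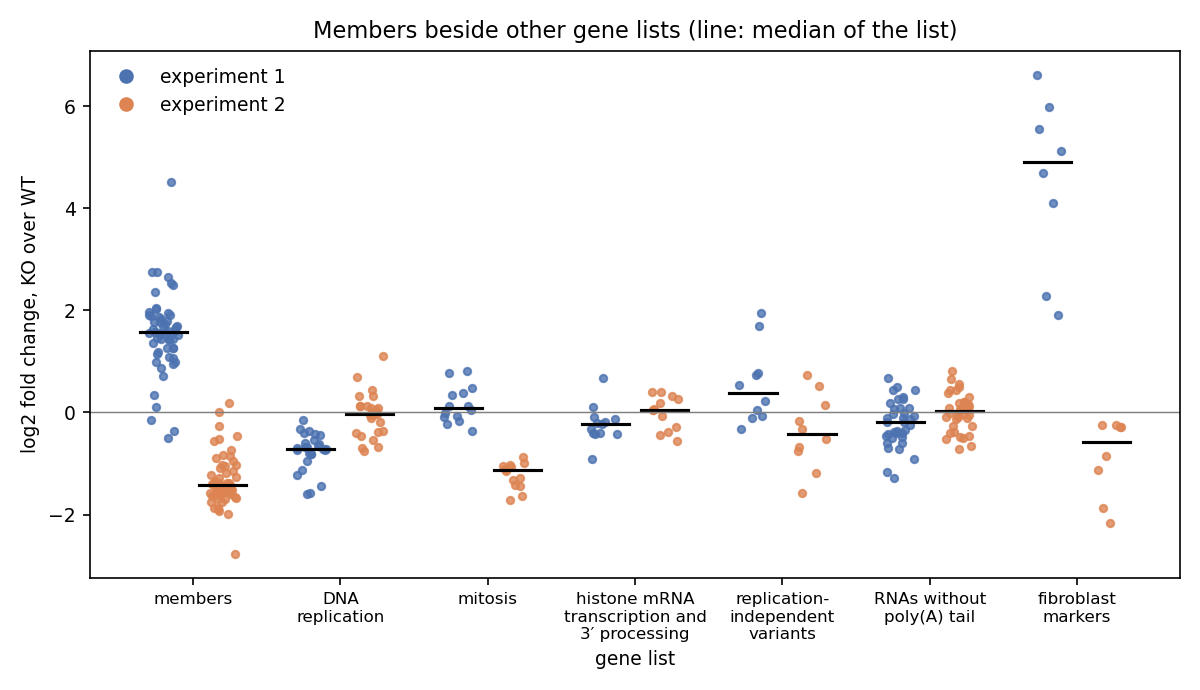
Log2 fold change of KO over WT for each gene of 7 lists, experiment 1 in blue and experiment 2 in orange, with a line at the median of each list. The members centre at 1.57 and -1.43, DNA replication genes at -0.71 and -0.03, and RNAs without a poly(A) tail at -0.19 and 0.03.

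RNAs without a poly(A) tail, of other kinds, were measured beside the members. Of 36 (small nucleolar RNAs and a few more), 1 rose and 3 fell in experiment 1, none passed in experiment 2, and 1 rose and 1 fell in the interaction test. Their summed level lay between 15410 and 18670 CPM in all 8 libraries. Rn7sk alone, which regulates transcription elongation, made up most of that sum (14090 CPM in WT 1 and 15390 CPM in KO 5), so that the sum says little of the others. Whether the libraries took up RNA without a poly(A) tail to a different extent was not tested. The interaction was 0.82 for Rny1, a Y RNA, and -0.38 for Rpph1, the RNA of RNase P, both past the threshold, and 1.51 for Snora16a, which was not (adjusted p = 0.0698, edgeR).

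Markers of other cells were measured beside these values. Macrophage markers were abundant in every library (summed 15990 to 36460 CPM, none of 9 at 0), but they were not even. Of the 9, 5 rose and 3 fell in experiment 1, and 2 rose and 2 fell in experiment 2. In the interaction test 2 were called positive and 4 negative, with a median of -0.755 and 6 of the 9 below 0. Adgre1, which encodes F4/80, had 8322 and 7097 CPM in WT 1 and WT 2, 1928 and 1668 CPM in KO 5 and KO 6, 2676 and 2718 CPM in WT 3 and WT 4, and 4871 and 5260 CPM in KO 7 and KO 8. Its interaction was 3.01 (adjusted p = 0.000148, edgeR), opposite in sign to that of most members. Itgam went the same way (2.36) and Csf1r the other (-2.11), both named after their values were seen. Lyz2, the lysozyme gene, had 7600 to 23920 CPM and an interaction of 1.14 that did not pass (adjusted p = 0.0726, edgeR). Fibroblast markers stood at 247 and 319 CPM in sum in KO 5 and KO 6 and at 3.28 to 21.04 CPM in the other 6 libraries. All 8 tested of 9 rose in experiment 1, with a median log2 fold change of 4.91, and none passed in experiment 2. Col1a2 had 81.7 and 105 CPM in KO 5 and KO 6 and 0.983 to 5.36 CPM elsewhere, and Sparc 51.1 and 66.4 CPM against 0.575 to 2.96 CPM. Myeloid progenitor markers summed to 2.31 and 1.58 CPM in WT 1 and WT 2, 5.54 and 6.02 CPM in KO 5 and KO 6, 14.0 and 10.1 CPM in WT 3 and WT 4, and 4.68 and 2.49 CPM in KO 7 and KO 8. The order of the 4 groups was that of most members, at far lower levels, with Mpo, Elane, Ctsg and Prtn3 too low to test, Kit at 1.41 to 8.19 CPM and Cd34 at 0.147 to 9.70 CPM. Neutrophil markers summed to 2.396 to 13.71 CPM, with Retnlg at 0, Mmp8 at 1.61 to 12.2 CPM and S100a8 at 0.110 to 1.33 CPM. Those of dendritic cells summed to 0.536 to 1.34 CPM, with Zbtb46 at 0.341 to 0.657 CPM and Xcr1 at 0.0959 to 0.493 CPM. Those of B cells summed to 0.977 to 5.61 CPM, with Cd79b at 0.919 to 5.58 CPM. T cell markers were at 0 to 0.0575 CPM in sum, with Cd3e at 0 and Cd3d and Cd3g at up to 0.0575 and 0.0270 CPM, and erythroid markers at 0.0274 to 0.192 CPM, with Klf1 detected and Hbb-bs and Hba-a1 at 0. The part of fibroblasts, progenitors or differences among macrophages in the levels of the members was not tested.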

How the data were processed

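RNA-seq was made from 8 samples of BMDMs, 4 WT and 4 KO, in 2 experiments. Per the submitters' processing notes, the authors aligned reads with STAR 2.7.0f to GRCm38 and counted them per gene with featureCounts (Subread 1.6.4), and deposited raw counts per gene for each experiment. Tables of counts normalized with DESeq2 1.22.1 were also deposited and were not used. The annotation release, the strand setting and the treatment of reads with several matches are not given in the sources used here.

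Both tables of counts were joined by gene and filtered with filterByExpr (14418 genes). Tests were edgeR 4.0.16 (limma 3.58.1, R 4.3.3) quasi-likelihood tests with TMM scaling, p-values being adjusted by Benjamini and Hochberg over all genes, with a threshold of 0.05. Each experiment was fitted on its own, and the interaction and the additive fit used all 8 libraries. DESeq2 1.42.0, limma-voom, other filters and scalings, and fits without each library were alternatives. Each SE was the log2 fold change over the square root of F. Tables were handled with pandas 2.3.3 (python 3.11.15) and drawn with matplotlib 3.10.9. All tests were tested on simulated data first. Positions and exons come from GENCODE M21 and promoters from RefSeq GRCm38.p6. Totals of 33977799 to 41584540 counts make counting error small for abundant members.

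The members and lists were chosen with earlier results of these data known. Values in every library are given for the 3 members with the most counts in each histone type, the 2 with the most in Hist2, Hist3 and Hist4, the 5 with the largest interaction past the threshold, and any called against the direction of most. Of other lists the 3 genes with the smallest interaction p are named, and of marker lists the 2 with the most counts.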

Additional observations from a re-analysis of the deposited data

Results flagged for a closer look

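The genotype difference of the following genes differed between the 2 experiments in the interaction test (edgeR, adjusted p under 0.05), and each value is log2 KO over WT in experiment 2 minus that in experiment 1. Among the linker histone genes it was -1.82 for Hist1h1c, -2.84 for Hist1h1e and -3.55 for Hist1h1d. For H2A it was -3.25 for Hist2h2ac, -3.10 for Hist1h2ak, -3.17 for Hist1h2ai and -1.82 for Hist3h2a. For H2B it was -6.40 for Hist3h2ba, -4.82 for the pseudogene Hist3h2bb-ps, -4.66 for Hist1h2bb and -4.65 for Hist2h2bb. It was -4.52 for Hist1h2bk, -3.26 for Hist1h2bn and 0.49 for Hist1h2bc. For H3 it was -3.03 for Hist1h3b, -3.41 for Hist1h3f and -3.10 for Hist1h3e. For H4 it was -2.28 for Hist1h4d, -2.64 for Hist1h4h, -2.19 for Hist1h4c, -3.07 for Hist2h4 and -2.06 for Hist4h4.

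Outside the members the same test gave 0.68 for Slbp, 0.54 for Npat, 0.78 for Sympk, -1.38 for Xrn1, 0.54 for Eri1, 0.45 for Dis3, -2.52 for Daxx, 0.70 for Nasp and 0.92 for Chaf1b. It gave -3.28 for Cenpa, -1.26 for H2afv and -1.72 for H2afx among the variants, and 1.77 for Cdt1, 1.32 for Cdc45 and 1.91 for Cdc6 among the replication genes. It gave -2.46 for Plk1, -2.48 for Ccnb2 and -1.41 for Ccnb1, and -1.58 for Cdkn2c, -3.27 for Cdkn2a and -1.35 for Cdkn2d. Among markers it gave 3.01 for Adgre1, -4.96 for Col1a2, -5.97 for Sparc, 3.75 for S100a8, -2.23 for Kit, -6.32 for Cd34 and 2.59 for Cd79b, and among RNAs without a poly(A) tail 0.82 for Rny1 and -0.38 for Rpph1.

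Of 126 values over 4 libraries of a genotype, 3 held a library far from the other 3 by Dixon's test, where chance gives about 1 in 20. They were Dis3 in WT 4 (47.7 CPM), Zbtb46 in KO 8 (0.599 CPM) and Ms4a1 in KO 5 (0 CPM). Ms4a1 had 7 counts over the 8 libraries, so its value rests on a difference of 1 read. The 4 libraries of a genotype come from both experiments, so a difference between experiments widens the range against which a library is judged.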

How the results depend on the processing

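The counts of members higher in KO in experiment 1 (51) and with a negative interaction (53) stayed at 48 to 51 and 51 to 53 without each library. The count lower in KO in experiment 2 (48) ran from 6 to 36 without each library (6 without KO 8, 13 without WT 3) and was 2 at an adjusted p under 0.01. With overlapping genes left aside, 34 members had at least 50% of their windows in no other gene. Among them 31 rose and 1 fell in experiment 1, 28 fell in experiment 2, and the interaction was negative in 32 and positive in 1 that passed. Without members that overlap another exon, 31 were called in experiment 2. Both settings hold fewer members and were chosen after seeing the data. Over both experiments, DESeq2 and the mean effect of the 4-group fit each called 1 member in place of 0. For the log2 fold change of Hist1h2bc, KO against WT in experiment 2, the range without each library was -0.0422 to 0.0518, with -0.0122 without WT 3 and -0.0422 without KO 7. The other settings tried for the 22 named members kept direction, and kept the call in 255 of 263 values in experiment 1, 205 of 263 in experiment 2 and 320 of 329 for the interaction. Counts called in the other gene lists changed by over 1.5 times in 58 of 336 values in experiment 1, 70 of 336 in experiment 2 and 81 of 420 for the interaction. The cause was not tested. No paired analysis was possible because the replicate numbers 1 to 8 are all different and the genotypes share none. Depth limits Hist3h2ba and the other members with few counts.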
